A study of Homo sapiens with 15 samples.

Results

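Homologous recombination repairs broken or stalled DNA by copying an intact sister strand, and the Fanconi pathway hands crosslinked DNA over to it. The 39 genes described here encode some of the proteins of these pathways, checkpoint factors that signal to them, and POLQ of an alternative end-joining route. They were taken as the rows of a count table whose Ensembl identifiers matched a fixed list of symbols, and all 39 were found among 57736 genes. The table holds 15 RNA libraries of IMR90 fibroblasts from human fetal lung, in 5 groups of 3. They are growing control cells, senescent control cells, senescent cells with a short hairpin RNA against TXNRD1 (shTXNRD1), senescent cells given the vehicle DMSO, and senescent cells given TRi-1, a small-molecule inhibitor of TXNRD1. TXNRD1 encodes the cytosolic thioredoxin reductase, and the study dealt with its part in innate immune signalling of senescent cells. The labels give no inducer of senescence, no dose or time of TRi-1, no control hairpin for either control group, and no word on whether the replicates were separate cultures. All p-values thus rest on the variation among these libraries, which may be technical, and a change with senescence cannot be told apart from a direct effect of its inducer.

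At a double-strand break the MRE11, RAD50 and NBN complex binds the ends, and nucleases such as EXO1 and DNA2 cut one strand back. BRCA1, PALB2 and BRCA2 then act on the exposed strand, and BLM, EME1 and GEN1 belong to the enzymes that resolve the joined molecules. In the Fanconi pathway a core complex with the ubiquitin ligase FANCL marks the FANCD2 and FANCI pair at a stalled fork. Recombination works in S and G2 phase, when a sister copy is present, and many of its genes are known targets of E2F factors, which drive S-phase transcription and are held off in arrested cells. Senescence is a lasting arrest of the cell cycle in which DNA is not replicated.

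Promoter windows show a feature that many of the genes share. RefSeq windows of 300 bases (GRCh38.p14), from 250 before to 50 after the transcription start, matched 35 of the 39 genes; where a gene had several, the first listed was used. They were searched on both strands for the E2F-type letters TTTCGCG or TTTGGCG or GCGGGAA. At least 1 of them stood in 19 of 35 windows (54.3%), against 9.39% of 27305 promoters in the table and 14.1% of 11338 promoters of genes tested here. In 13 of those 19 windows the letters began within 25 bases of the start, a distance chosen after the positions were seen; among promoters of genes tested the same held for 325 of 1601 windows with the letters (20.3%). A match is a description of the letters and not a bound site. The following windows hold the last 120 bases before the start, 5′ to 3′ on the strand of the gene, with E2F-type letters in capitals. The first 4 genes hold the letters and were lower in senescent cells, and FANCC is shown because it was also among the genes lower with the hairpin. ATM and RAD50, shown for contrast, hold none in the window and were not lower in senescent cells. These 6 were chosen after their values were seen. They do not stand for all, since 11 of the 16 genes without the letters in the window were lower too.
RAD51AP1, chr12:4538770-4538889, plus strand: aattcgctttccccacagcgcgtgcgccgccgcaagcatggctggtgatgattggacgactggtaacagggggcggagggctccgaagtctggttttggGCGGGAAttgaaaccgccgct
RAD54L, chr1:46247568-46247687, plus strand: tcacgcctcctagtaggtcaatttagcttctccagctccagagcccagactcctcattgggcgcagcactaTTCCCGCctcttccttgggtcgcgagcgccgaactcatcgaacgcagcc
BLM, chr15:90717226-90717345, plus strand: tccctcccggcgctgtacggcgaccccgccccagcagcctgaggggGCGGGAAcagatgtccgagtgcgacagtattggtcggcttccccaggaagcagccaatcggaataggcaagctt
FANCC, chr9:95317710-95317829, minus strand: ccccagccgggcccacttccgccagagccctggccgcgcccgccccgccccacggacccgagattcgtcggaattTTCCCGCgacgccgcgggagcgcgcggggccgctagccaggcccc
ATM, chr11:108222947-108223066, plus strand: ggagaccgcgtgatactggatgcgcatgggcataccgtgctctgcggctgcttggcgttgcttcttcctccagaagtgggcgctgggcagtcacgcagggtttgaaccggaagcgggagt
RAD50, chr5:132556857-132556976, plus strand: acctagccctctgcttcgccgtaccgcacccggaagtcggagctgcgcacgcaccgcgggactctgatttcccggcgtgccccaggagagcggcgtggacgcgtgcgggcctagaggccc
The letters TTTGAA of the CHR element, a site of the complexes that repress mitosis genes, stood in 4 of the 35 windows (11.4%), against 15.4% of all promoters in the table and 10.1% of promoters of genes tested. The CCAAT box stood in 15 of 35 (42.9%), against 35.7% and 36.4%.

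Levels are CPM (the edgeR unit for counts as a share of the TMM-scaled library total), and a level with ± is a group mean ± SD. A change is a log2 fold change ± a standard error, tested with the edgeR quasi-likelihood F test. The standard error was derived as the absolute change over the square root of F. A change was called at a Benjamini-Hochberg adjusted p under 0.05 over 15994 tested genes. All 39 genes passed the filter on low counts, with 3 libraries in every group. Library totals ran from 18033076 to 28909046 counts. The targeted gene TXNRD1 stood at 1635 ± 130 CPM in growing control, 515 ± 12 in senescent control and 22.6 ± 2.30 CPM with the hairpin (-4.51 ± 0.08, adjusted p = 2.02e-13), and at 408 ± 19.3 with DMSO and 431 ± 11.6 CPM with TRi-1 (0.08 ± 0.07, adjusted p = 0.483). TRi-1 acts on the protein, so the mRNA does not check its labels. Libraries of a group differed along GC content: growing control replicate 1, shTXNRD1 replicate 3, DMSO replicate 1 and, less so, senescent control replicate 3 were high in AT-rich transcripts. Growing control replicate 1 was the highest of its group in 29 of the 39 genes, shTXNRD1 replicate 3 in 28, and DMSO replicate 1 and senescent control replicate 3 in 23 each. In the GENCODE v29 annotation, exons of 10 of the genes overlap those of a neighbour, 9 of them on the opposite strand, and whether counting used strand is not given. The widest such overlaps are those of XRCC3 with KLC1 (45.4% of its exon bases), FANCL with VRK2 (26.6%), FANCA with ZNF276 (22.4%) and RAD54L with LRRC41 (18%), and EME1 overlaps LRRC59 (10.3%). Over all libraries KLC1 held 50945 counts against 543 for XRCC3, LRRC41 36616 against 1055 for RAD54L and LRRC59 75210 against 892 for EME1. The values of these genes are uncertain, by an amount the table does not give. All 10 fibroblast markers were detected, with sums of 16530 to 21770 CPM in growing control, 16990 to 19610 in senescent control, 12270 to 15720 in shTXNRD1, 15540 to 18060 in DMSO and 11680 to 12430 in TRi-1. Of the 10, 3 were higher and 4 lower with senescence. With the hairpin 3 were higher and 6 lower, and with TRi-1 1 was higher and 7 lower. Over all genes tested, 29.5% were lower with senescence, 24.8% with the hairpin and 12.2% with TRi-1. The shares called higher were 27.4%, 25.8% and 7.64%. Summed endothelial markers ran from 109 to 134 CPM in growing control, 159 to 172 in senescent control, 105 to 133 in shTXNRD1, 85.3 to 91.1 in DMSO and 51.7 to 55 in TRi-1, with CDH5 at 0 in growing control. Of 4 tested, 3 were higher with senescence and none lower, and with the hairpin 1 was higher and 3 lower. With TRi-1 2 of these were lower and none higher. Epithelial sums ran from 46.5 to 82.8 CPM over all groups. Of 5 tested, 1 was higher and 2 lower with senescence, 1 higher and 2 lower with the hairpin, and 1 higher and 1 lower with TRi-1. Summed leukocyte markers went from 15.6 to 25.6 CPM in growing control to between 72.5 and 80.7 in senescent control, with 18.8 to 38 in shTXNRD1, 56.8 to 74.5 in DMSO and 91.5 to 93.3 in TRi-1. Of 3 tested, 2 were higher with senescence and 2 lower with the hairpin, and with TRi-1 all 3 were not called. CD3E of T cells and MS4A1 of B cells were at 0 counts in all groups, and the part of these markers in the results was not tested.

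**Figure D1:**
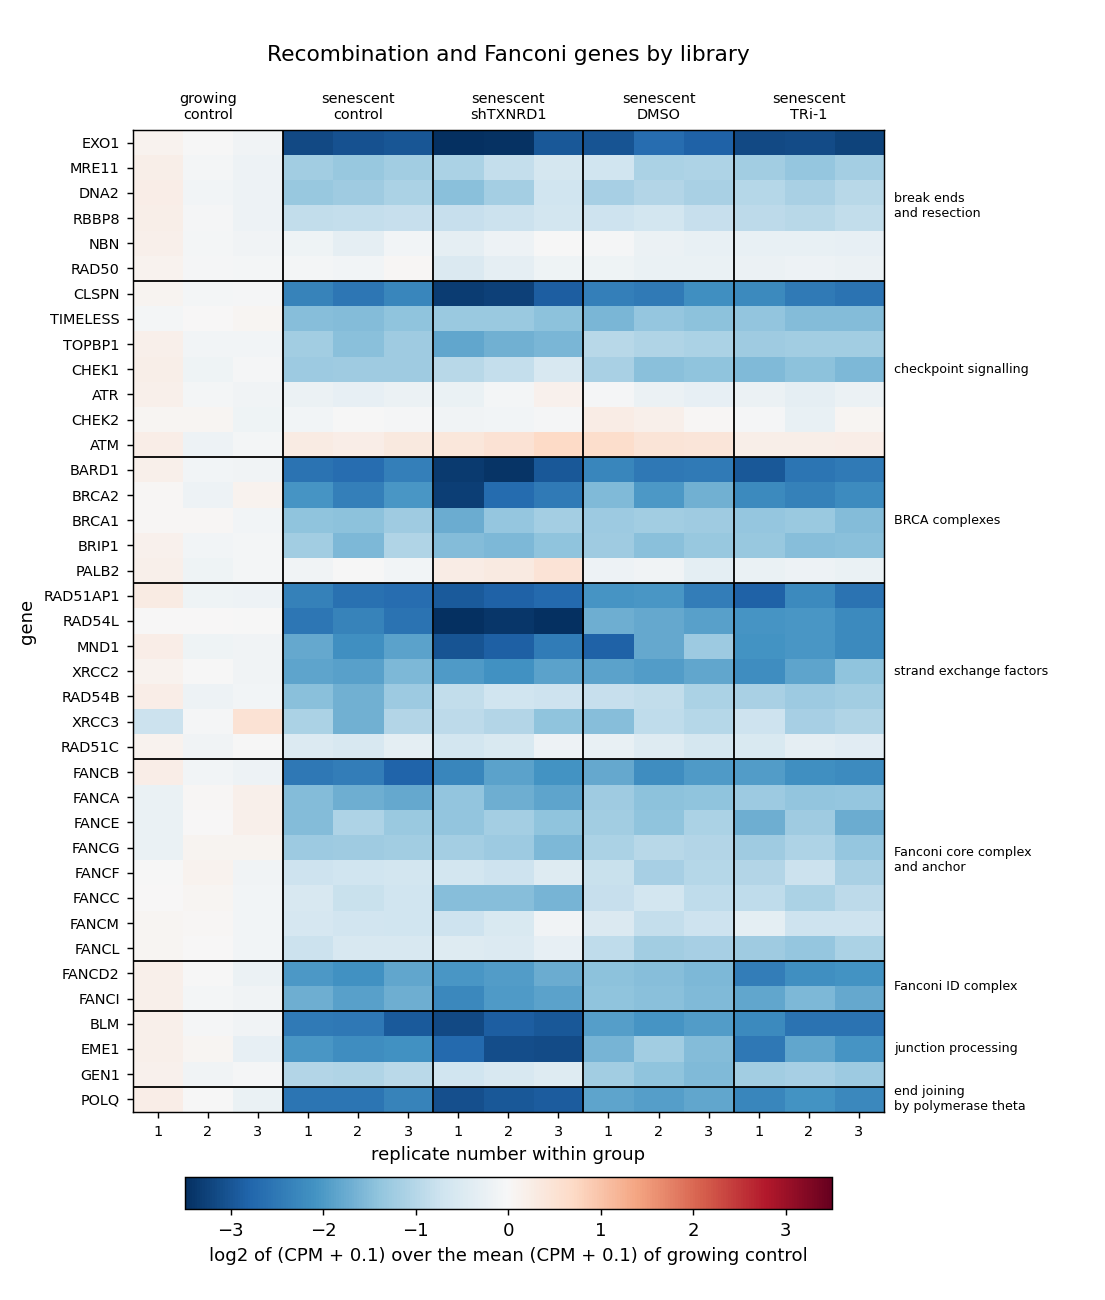
Each cell is 1 gene (rows, by role) in 1 library (columns, by group); the colour is log2 of (CPM + 0.1) over the mean of (CPM + 0.1) in growing control, blue for lower and red for higher. The 4 senescent groups are blue in most rows, while the rows of NBN, RAD50, ATR, CHEK2, ATM and PALB2 stay pale or turn red.

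Per kilobase of the longest annotated transcript, NBN was the most abundant of the genes in growing control at 17.7 CPM per kilobase, followed by TOPBP1 at 11.6 and FANCI at 10.8. XRCC3 and BRCA2 were the lowest at 0.973 and 1.39. In senescent control the order of the upper end had shifted to sensors and apical kinases: NBN stood at 15.6, RAD50 at 10.1, ATM at 8.26 and ATR at 6.64 CPM per kilobase. BRCA2 at 0.304 and BLM at 0.326 were then the lowest. No test was made between genes, and the lengths come from an annotation of another build than the processing notes name.

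Senescent control was set against growing control to show how the repair genes stand in arrested cells. Of the 39 genes, 33 were lower in senescent cells, 1 was higher and 5 were not called. Over all genes tested, 29.5% were called lower and 27.4% higher. The list was chosen with earlier results of these data known, so its share beside that of all genes is a description. The median change of the 39 was -1.31, against 0.03 over all genes tested, and in all 33 the libraries of the groups did not overlap, and 29% of all genes tested were called lower without overlap. The fall was over 4-fold in 12 genes, a size and direction that 2.06% of all genes tested reached. It was 2-fold to 4-fold in 15 and under 2-fold in 6. Summed over the 39 genes, the level went from 1004 ± 89.4 CPM to 583 ± 26.5 CPM. The most abundant genes weigh most in this sum. ATM stood at 88.8 CPM in growing and 109 in senescent control, RAD50 at 86.2 and 84.2, and NBN at 82.6 and 73. None of these was called lower. In bulk RNA, fewer cells that express a gene and less RNA per cell cannot be told apart. The sum over 18 mitosis genes went from 1465 ± 111 CPM in growing control to 232 ± 1.90 CPM in senescent control.

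Among the genes of break ends and resection the nucleases fell and the sensor complex split. EXO1 (ENSG00000174371), the exonuclease of long-range resection and of mismatch repair, stood at 22.9, 20.8 and 19.5 CPM in the growing libraries and 2.27, 2.47 and 2.55 in the senescent control libraries. All 3 senescent libraries were far below all growing ones, and its change was the largest of the 39 genes (-3.11 ± 0.15, adjusted p = 2.18e-10). MRE11, the nuclease that opens the break end, stood at 36.5, 30 and 27.9 CPM in growing and 13.5, 12.6 and 13.4 in senescent libraries. It too was lower without overlap (-1.25 ± 0.14, adjusted p = 2.87e-06). DNA2, a nuclease and helicase (-1.23 ± 0.16), and RBBP8, which encodes the CtIP protein that starts resection (-0.83 ± 0.09), fell by less than EXO1. The partners of MRE11 were not called: RAD50, the ATPase that bridges ends, had a change of -0.04 ± 0.08, adjusted p = 0.73, and NBN, which recruits ATM, one of -0.18 ± 0.10, adjusted p = 0.131. After a correction for GC content RAD50 was called higher (0.17, adjusted p = 0.000233). The correction removes trends with GC content from each library, also those that differ between whole groups.

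Of the 7 checkpoint genes 4 were called lower, CLSPN, TIMELESS, TOPBP1 and CHEK1, while ATM, ATR and CHEK2 were not. CLSPN, which encodes claspin, the adaptor between ATR and CHK1, stood at 31.1, 27.4 and 28.2 CPM in growing and 5.68, 4.94 and 5.85 in senescent libraries. Every senescent library was below every growing one (-2.40 ± 0.14, adjusted p = 2.07e-09). TIMELESS, a fork protection factor, stood at 34.8, 37 and 38.6 CPM in growing and 13.1, 12.8 and 13.8 in senescent libraries, again without overlap (-1.47 ± 0.08, adjusted p = 1.35e-09). TOPBP1, the activator of ATR (-1.31 ± 0.09), and CHEK1, the effector kinase (-1.25 ± 0.12), were also lower. ATM, the kinase that answers breaks, was the only gene of the 39 called higher, with 104, 78 and 84.7 CPM in growing and 108, 104 and 113 in senescent libraries. Growing control replicate 1 came within a few CPM of the senescent libraries while the other growing libraries were lower (0.29 ± 0.10, adjusted p = 0.0225). The ATM call did not hold without growing control replicate 2 (adjusted p = 0.0953) or 3 (0.0598) and without senescent control replicate 3 (0.0751). ATR, the kinase of stalled forks (-0.23 ± 0.10, adjusted p = 0.0709), and CHEK2, the effector kinase downstream of ATM (-0.06 ± 0.10, adjusted p = 0.668), were not called, although the ATR libraries did not overlap.

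Of the BRCA complexes 4 of 5 genes fell. BARD1, the partner of BRCA1 in its ubiquitin ligase, stood at 24.2, 19.9 and 19.6 CPM in growing and 3.49, 3.26 and 4 in senescent libraries. BRCA2, which binds single-stranded DNA at resected breaks, stood at 17.1, 14.6 and 18.3 CPM in growing and 3.93, 3.06 and 3.95 in senescent libraries. Neither gene had a senescent library near the growing ones, and the changes were -2.57 ± 0.15 for BARD1 and -2.18 ± 0.18 for BRCA2 (adjusted p = 3.69e-09 and 1.28e-07). BRCA1 itself (-1.37 ± 0.12) and BRIP1, a helicase bound to it (-1.27 ± 0.12), fell less. PALB2, which bridges BRCA1 and BRCA2, was not called (-0.07 ± 0.09, adjusted p = 0.557).

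All 7 strand exchange factors were lower. RAD51AP1, which stimulates strand pairing, stood at 17.8, 13 and 12.7 CPM in growing and 2.72, 2.27 and 2.2 in senescent libraries. RAD54L, a motor protein of strand exchange, stood at 8.92, 8.92 and 8.74 CPM in growing and 1.46, 1.68 and 1.4 in senescent libraries. Both had separate groups, with changes of -2.59 ± 0.18 and -2.55 ± 0.13 (adjusted p = 2.03e-08 and 7.03e-10). MND1 (-2.04 ± 0.30), known for its part in meiotic recombination, XRCC2 (-1.81 ± 0.17), a recombination mediator, and RAD54B (-1.49 ± 0.14), a relative of RAD54L, followed. XRCC3 (-1.30 ± 0.31), which acts in a complex with the product of RAD51C, rested on few counts, 203 over the growing group and 77 over the senescent control group. RAD51C, a subunit of mediator complexes of recombination, had the smallest called fall of the 39 genes (-0.46 ± 0.13, adjusted p = 0.00744).

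All 8 genes of the Fanconi core complex and its anchor were lower, by very unequal amounts. FANCB stood at 10.2, 8.18 and 7.71 CPM in growing and 1.46, 1.53 and 1.15 in senescent libraries. FANCA, another subunit, stood at 12.9, 15.6 and 17.2 CPM in growing and 5.31, 4.6 and 4.35 in senescent libraries. The groups were separate in both genes (-2.65 ± 0.17 and -1.68 ± 0.14, adjusted p = 8.67e-09 and 1.33e-07). FANCE (-1.32 ± 0.17) and FANCG (-1.26 ± 0.12) fell 2-fold to 4-fold. FANCF (-0.70 ± 0.13), FANCC (-0.68 ± 0.10), the anchor and translocase FANCM (-0.66 ± 0.14) and the ubiquitin ligase FANCL (-0.63 ± 0.11) fell by less than 2-fold. The substrates of the complex were lower as well. FANCD2 stood at 22.4, 19.5 and 17.1 CPM in growing and 4.79, 4.45 and 5.5 in senescent libraries. FANCI, its partner, stood at 57.8, 48.8 and 47.5 CPM in growing and 15.7, 13.6 and 15.8 in senescent libraries. Neither pair of groups overlapped (-2.0 ± 0.13 and -1.77 ± 0.11, adjusted p = 9.39e-09 and 7.01e-09).

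The genes of junction processing and of the alternative end-joining route fell too. BLM, the helicase that dissolves joined molecules, stood at 12.4, 10.7 and 10.1 CPM in growing and 1.91, 1.88 and 1.35 in senescent libraries. EME1, the partner of the MUS81 nuclease, stood at 7.77, 7.11 and 5.54 CPM in growing and 1.58, 1.43 and 1.5 in senescent libraries. Both were separate between the groups (-2.68 ± 0.15 and -2.17 ± 0.19, adjusted p = 2.45e-09 and 2.77e-07), while GEN1, a resolvase, fell less (-1.01 ± 0.10). POLQ, the polymerase of theta-mediated end joining, stood at 23.8, 20.1 and 17.2 CPM in growing and 3.37, 3.36 and 3.95 in senescent libraries, a change of -2.52 ± 0.13, adjusted p = 4.53e-10. Its senescent libraries were all below 4 CPM.

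**Figure D2:**
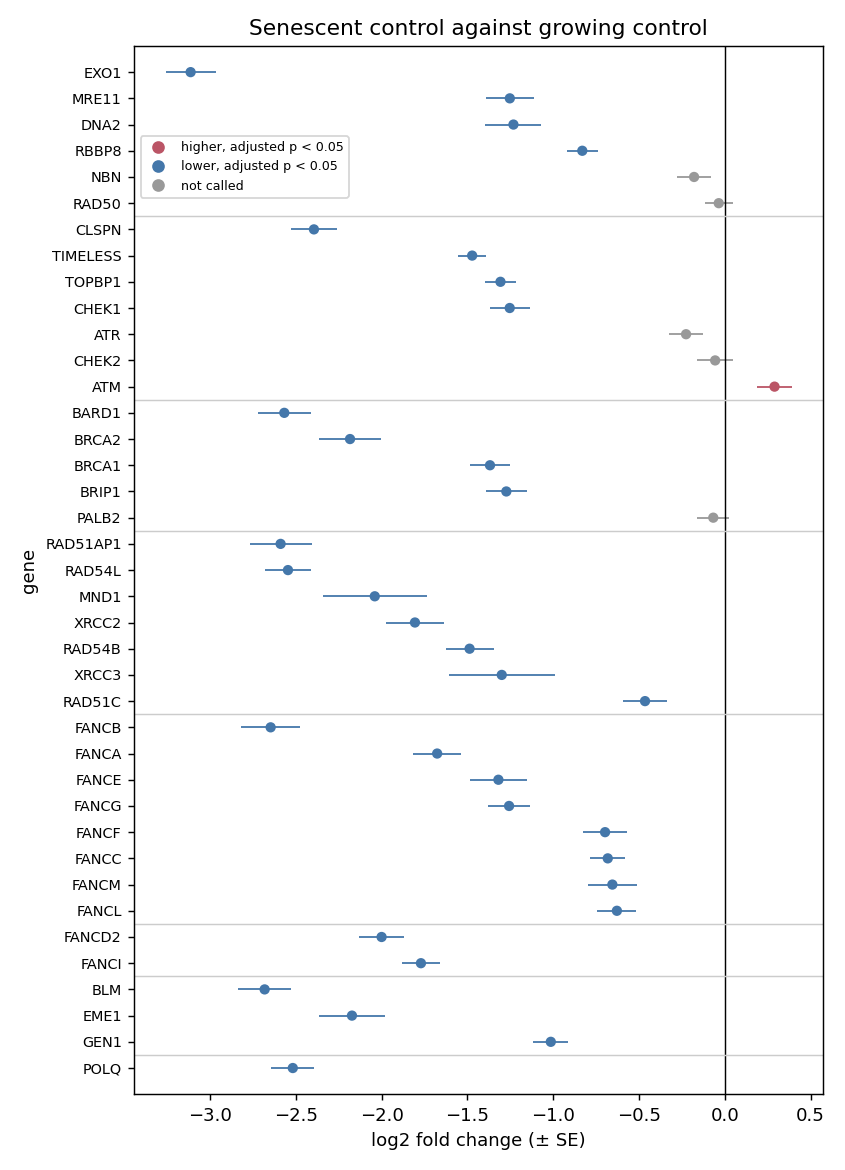
Points are log2 fold changes of senescent control over growing control with standard errors, 1 row per gene by role, coloured by the call at an adjusted p under 0.05. EXO1 lies farthest left at -3.11, the 5 grey points are RAD50, NBN, ATR, CHEK2 and PALB2, and ATM is the 1 red point.

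The E2F-type letters were set beside these calls. The 19 genes with the letters were all among the 30 genes with a window that were lower in senescent cells, and none of the 5 genes with a window that were not lower held them. Of the 16 genes with a window but without the letters, 11 were lower too. The share of lower genes among all tested promoters with the letters was not counted. The median senescence change was -1.81 over the 19 genes with the letters and -1.04 over the 16 without. FANCB (-2.65), BRCA2 (-2.18) and EME1 (-2.17) fell over 4-fold and held no such letters in the window. These values are descriptions and carry no test.

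Other repair and cell cycle lists were counted the same way in senescent against growing control. Of 35 further recombination and Fanconi genes 16 were lower and 4 higher (median -0.13), and of 19 checkpoint clamp and break signalling genes 14 were lower and none higher (-0.56). USP1, which removes ubiquitin from FANCD2 (-1.76 ± 0.09), and RAD1, a subunit of the checkpoint clamp (-1.21 ± 0.07), had the smallest p of their lists. Of 16 genes of non-homologous end joining 8 were lower and 3 higher (-0.38), and of 25 excision repair genes 8 were lower and 4 higher (-0.07). All genes tested had 29.5% lower and 27.4% higher, and the excision repair share of lower genes was near that. DDB2, a sensor of ultraviolet damage, rose (1.53 ± 0.08, adjusted p = 5.91e-10), and RAD23B, a partner of the damage sensor XPC, fell (-0.87 ± 0.06, adjusted p = 1.74e-08). Of 30 replication fork genes 28 were lower (-1.82) and of 18 mitosis genes all 18 (-2.77), with MKI67, the proliferation marker, at -2.81 ± 0.07. Among 19 E2F and pocket protein regulators 13 were lower and 2 higher (-0.46), with the repressor E2F7 at 2.54 ± 0.08 and the activator FOXM1 at -2.27 ± 0.10. The medians set the 39 genes between the further recombination genes and the replication fork genes; the lists were not tested against each other. In edgeR, DESeq2 and limma-voom 0 of the checkpoint clamp genes were higher also at an unadjusted p under 0.05.

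**Figure D3:**
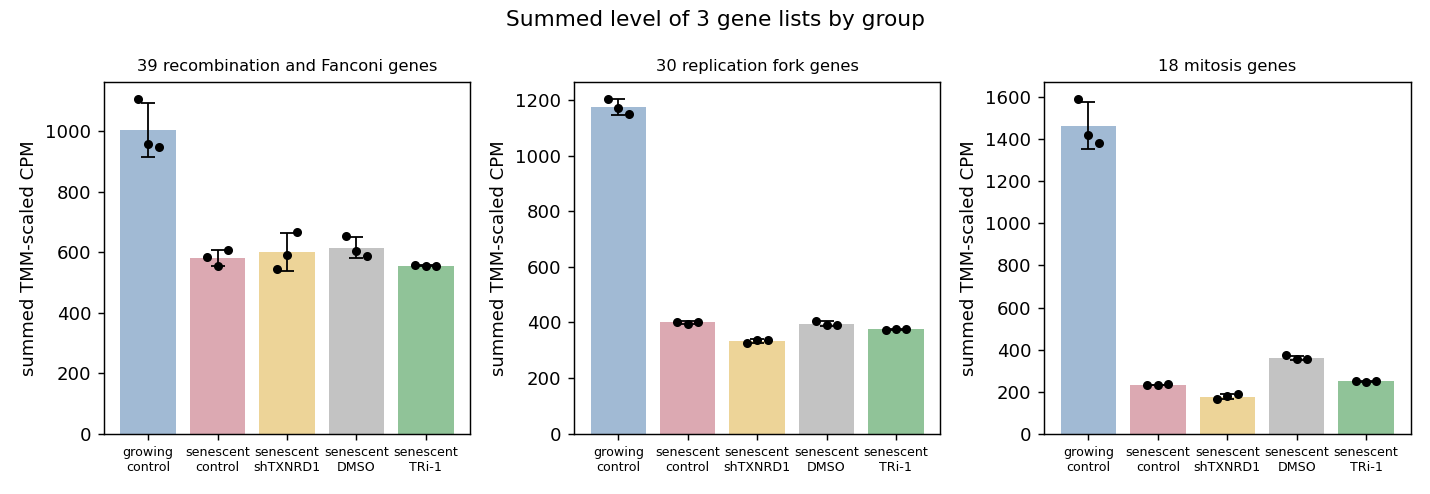
Points are the summed TMM-scaled CPM of a list in 1 library, by group, bars are group means and error bars are SD (n = 3), for the 39 genes, 30 replication fork genes and 18 mitosis genes. The 39 recombination and Fanconi genes go from 1004 ± 89.4 CPM in growing control to 583 ± 26.5 in senescent control, and the mitosis genes from 1465 ± 111 to 232 ± 1.90.

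The hairpin comparison asked how the repair genes of senescent cells stood after loss of TXNRD1 RNA. There was 1 hairpin condition, so other effects of the hairpin cannot be told apart from those of the loss. It shares the senescent control libraries with the comparison above, so the direction of a gene in both is not independent. Of the 39 genes 7 were higher and 10 lower, against 25.8% of all genes tested called higher and 24.8% lower, shares near those of the 39 genes. The median was -0.03, against -0.01 over all genes tested. After the correction for GC content 5 were higher and 16 lower with a median of -0.13. Over all genes the change correlated with the GC content of the transcript at a Spearman rho of -0.32. The same rho was 0.28 for senescence, 0.314 for TRi-1 against DMSO and -0.119 for DMSO against senescent control. With growing control replicate 1, shTXNRD1 replicate 3 and DMSO replicate 1 left out, 7 were higher and 12 lower, and with senescent control replicate 3 left out as well 6 and 12. Without shTXNRD1 replicate 2 or 3 alone, 4 were higher. Over the mitosis genes the sum stood at 177 ± 12 CPM with the hairpin, and 12 of these 18 genes were lower and 1 higher. Of 30 replication fork genes 17 were lower and 3 higher.

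Genes lower with the hairpin came from several steps of recombination. RAD54L stood at 1.46, 1.68 and 1.4 CPM in senescent control and 0.5, 0.744 and 0.595 with the hairpin, and each hairpin library was below 1 CPM. This was the largest change of the 39 genes (-1.29 ± 0.17, adjusted p = 1.73e-05), on 98 counts over the control group against 39. EME1 stood at 1.58, 1.43 and 1.5 CPM in senescent control and 0.95, 0.7 and 0.694 with the hairpin, separate groups again (-0.95 ± 0.23, adjusted p = 0.00348). MND1 stood at 0.852, 0.643 and 0.8 CPM in senescent control and 0.3, 0.35 and 0.496 with the hairpin, or 50 against 24 counts over the groups (-1.0 ± 0.38, adjusted p = 0.042). The MND1 call was lost in DESeq2 (adjusted p = 0.0768), in limma-voom (0.0675) and without senescent control replicate 1 (0.113) or 3 (0.0847) or shTXNRD1 replicate 1 (0.105) or 2 (0.11). FANCC fell from 8.56 ± 0.715 to 4.69 ± 0.284 CPM (-0.87 ± 0.11, adjusted p = 1.21e-05), the 1 core complex gene called lower. CLSPN went from 5.49 ± 0.481 to 3.18 ± 0.592 CPM (-0.79 ± 0.15, adjusted p = 0.000457) and BARD1 from 3.58 ± 0.378 to 2.17 ± 0.401 (-0.73 ± 0.17, adjusted p = 0.00257). BRCA2 (-0.64 ± 0.20), POLQ (-0.50 ± 0.14), TOPBP1 (-0.40 ± 0.09) and RAD50 (-0.28 ± 0.08) were lower by smaller amounts. The BRCA2 call was lost when the compared groups were fitted alone (adjusted p = 0.07).

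The 7 genes higher with the hairpin had changes up to 0.72. RAD54B, the relative of RAD54L, stood at 3.69, 3.16 and 4.3 CPM in senescent control and 5.65, 6.39 and 6.29 with the hairpin (0.72 ± 0.14, adjusted p = 0.000757), so the related motor genes were called in opposite directions. Of the exon bases of RAD54B, 63.3% lie in FSBP on the same strand, which held 142 counts over all libraries. CHEK1 went from 18.2 ± 0.222 to 25.2 ± 3.66 CPM (0.47 ± 0.12, adjusted p = 0.00369), GEN1 from 12 ± 0.591 to 16.5 ± 1.43 (0.45 ± 0.10, adjusted p = 0.002) and PALB2 from 16.9 ± 0.63 to 22.7 ± 1.85 (0.42 ± 0.09, adjusted p = 0.00154). FANCB (0.53 ± 0.18, adjusted p = 0.0263), MRE11 (0.41 ± 0.14, adjusted p = 0.0233) and ATM (0.25 ± 0.10, adjusted p = 0.049) were nearer the threshold. The FANCB call was lost in DESeq2 (adjusted p = 0.0991), in limma-voom (0.062), with no filter (0.0545), after the GC correction (0.147), with the 3 AT-rich libraries and senescent control replicate 3 left out (0.113) and without senescent control replicate 3 (0.103) or shTXNRD1 replicate 2 (0.137) or 3 (0.0522). MRE11 stood at 14.6, 17.6 and 20.6 CPM in the hairpin libraries, and its call was lost without shTXNRD1 replicate 3 (adjusted p = 0.111), shTXNRD1 replicate 2 (0.0539) or senescent control replicate 2 (0.0749). The ATM call was lost with RLE scaling (adjusted p = 0.0684), in DESeq2 (0.0655), in limma-voom (0.0501) and after the GC correction (0.201). It was also lost without senescent control replicate 1 (0.102), 2 (0.141) or 3 (0.0631) and without shTXNRD1 replicate 2 (0.0712) or 3 (0.2).

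The TRi-1 comparison asked the same of the inhibitor, with the DMSO libraries as controls. Of the 39 genes 3 were lower and none higher, against 12.2% of all genes tested called lower and 7.64% higher. The median of the 39 was -0.19, against 0.01 over all genes tested, and after the GC correction it was -0.07 with 2 genes higher and 5 lower. The sum over the mitosis genes was 361 ± 11.4 CPM with DMSO and 249 ± 2.10 with TRi-1, beside 232 ± 1.90 in senescent control. Of these 18 genes 12 were lower with TRi-1 and none higher. Replication fork genes had 2 of 30 lower. Without DMSO replicate 3 or TRi-1 replicate 3 only 1 of the 39 genes was called lower. For the 39 genes and for the mitosis genes, 0 were higher with TRi-1 also at an unadjusted p under 0.05, in edgeR, DESeq2 and limma-voom alike.

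FANCD2, the central ubiquitin substrate of the Fanconi pathway, had the largest change. Its libraries stood at 7.2, 6.96 and 6.59 CPM with DMSO and 3.56, 4.34 and 4.52 with TRi-1, with no overlap (-0.73 ± 0.13, adjusted p = 0.00161). Senescent control stood at 4.79, 4.45 and 5.5 CPM, below all DMSO libraries and overlapping those with TRi-1. EME1 stood at 2.12, 2.85 and 2.32 CPM with DMSO and 1.12, 1.85 and 1.56 with TRi-1, close to the 1.58, 1.43 and 1.5 CPM of senescent control. The groups did not overlap (-0.67 ± 0.20, adjusted p = 0.0308), but the call was lost in DESeq2 (adjusted p = 0.0775) and without DMSO replicate 2 (0.118) or 3 (0.0611) or TRi-1 replicate 1 (0.126) or 3 (0.074). BLM went from 2.74 ± 0.14 to 1.94 ± 0.303 CPM (-0.50 ± 0.16, adjusted p = 0.0412), and its call was lost in DESeq2 (0.13), limma-voom (0.0576), with no filter (0.0917), with the 3 AT-rich libraries left out (0.0695) and after the GC correction (0.0551). Without DMSO replicate 1 (0.114), 2 (0.0663) or 3 (0.104), or TRi-1 replicate 2 (0.147) or 3 (0.142), BLM was not called either. In senescent control BLM stood at 1.71 ± 0.313 CPM. BRCA2 stood at 5.65, 4.06 and 5.07 CPM with DMSO and 3.46, 3.14 and 3.51 with TRi-1, separate groups with a change that missed the threshold (-0.55 ± 0.19, adjusted p = 0.0536). ATM (-0.29 ± 0.10, adjusted p = 0.0558) and POLQ (-0.36 ± 0.13, adjusted p = 0.0619) missed it as well; with the compared groups fitted alone 8 genes were called lower, BRCA2, ATM and POLQ among them. The remaining 33 genes had changes between -0.39 (MND1) and 0.17 (GEN1). With DESeq2 only FANCD2 was called.

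**Figure D4:**
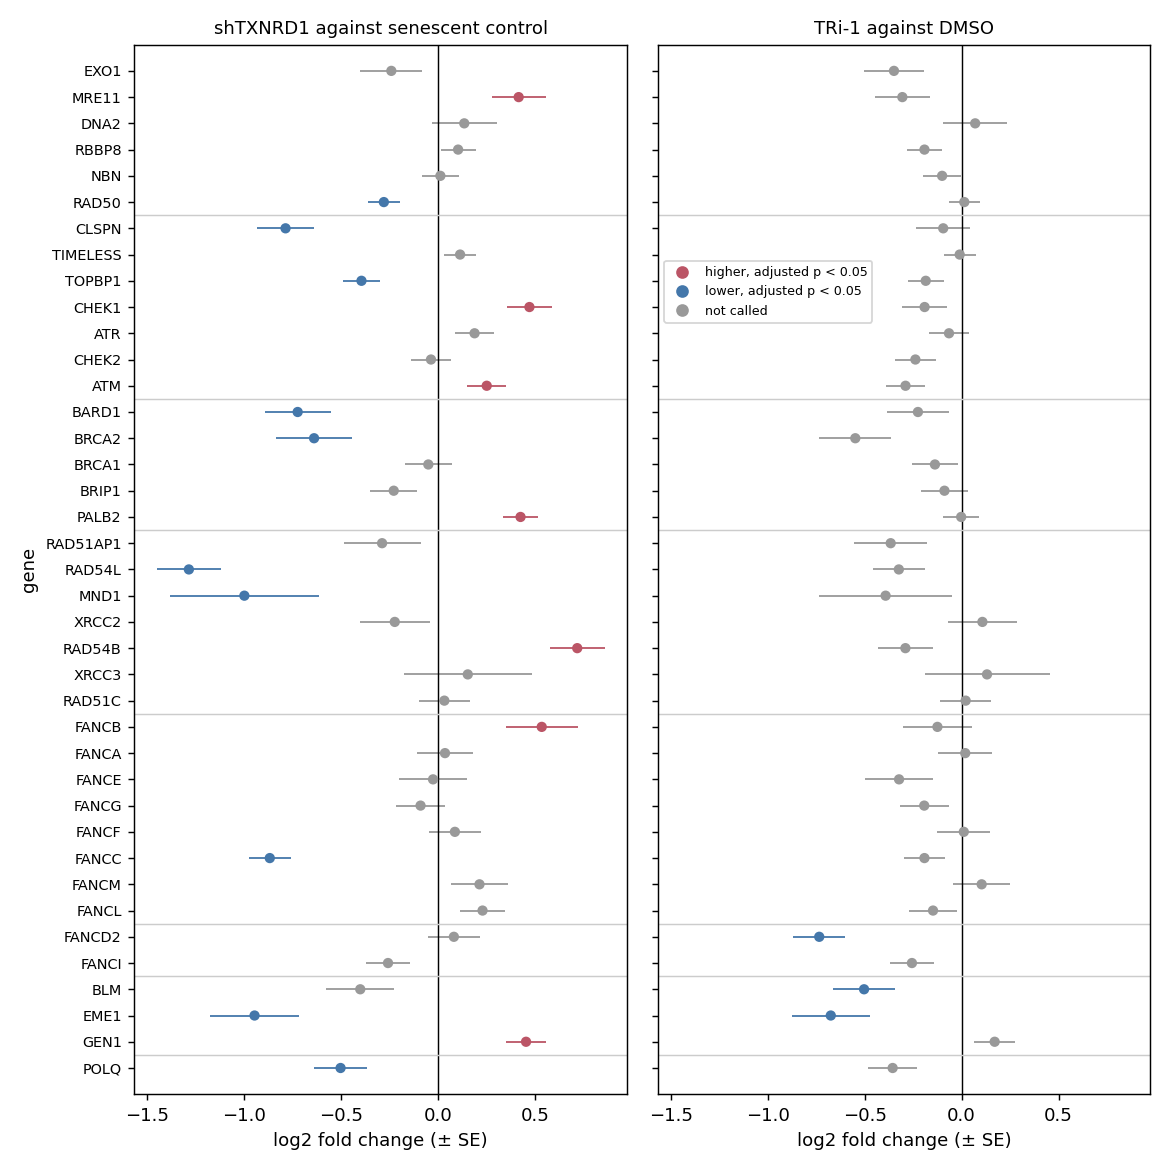
Points are log2 fold changes with standard errors for shTXNRD1 over senescent control (left) and TRi-1 over DMSO (right), 1 row per gene by role, coloured by the call at an adjusted p under 0.05. On the left 7 genes are higher and 10 lower, from RAD54L at -1.29 to RAD54B at 0.72; on the right FANCD2, EME1 and BLM are lower.

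The control groups of the inhibitions differed among themselves. Senescent DMSO was compared with senescent control; these libraries are the controls of the comparisons above, so the values are given side by side. Of the 39 genes 7 were higher with DMSO and 2 lower, against 8.36% of all genes tested called higher and 7.87% lower, with a median of 0.12 against -0.01. RAD54L (0.71 ± 0.14, adjusted p = 0.00304), EME1 (0.68 ± 0.20, adjusted p = 0.0337), BLM (0.67 ± 0.16, adjusted p = 0.0112), POLQ (0.64 ± 0.13, adjusted p = 0.00327), FANCB (0.63 ± 0.18, adjusted p = 0.0314), RAD54B (0.55 ± 0.14, adjusted p = 0.0178) and FANCD2 (0.49 ± 0.13, adjusted p = 0.0208) were higher. Of these, FANCD2, EME1 and BLM were the genes called lower with TRi-1, against the same DMSO libraries. FANCL (-0.48 ± 0.12, adjusted p = 0.0129) and GEN1 (-0.38 ± 0.10, adjusted p = 0.0228) were lower with DMSO. RAD54L and POLQ kept their call in every fit that tested them. The other 7 calls were lost in some fits. EME1 lost its call in DESeq2 (adjusted p = 0.0822), in limma-voom (0.0604) and without DMSO replicate 2 or 3 or any 1 senescent control library (0.0704 to 0.134). FANCB lost its call in DESeq2 (adjusted p = 0.101), in limma-voom (0.0715), with no filter (0.0573), with the 3 AT-rich libraries left out (0.0699) and without replicate 1 or 3 of either group (0.0654 to 0.123). FANCD2 (adjusted p = 0.058 to 0.0814) and RAD54B (0.0551 to 0.0771) lost theirs without replicate 1 or 2 of either group. FANCL (adjusted p = 0.0502 to 0.0625) and GEN1 (0.0724 to 0.111) lost theirs without DMSO replicate 2 or 3 or senescent control replicate 3. BLM lost its call without senescent control replicate 3 (adjusted p = 0.0536). With senescent control replicate 3 left out beside the 3 AT-rich libraries, BLM (adjusted p = 0.0689) and FANCB (0.185) were not called. Leaving out 1 library gave 3 to 5 genes higher and 0 to 2 lower: 4 were higher without DMSO replicate 1 or 2 or senescent control replicate 2 or 3, 3 were higher without senescent control replicate 1, and none was lower without DMSO replicate 2 or 3 or senescent control replicate 3. After the GC correction 12 were higher and 3 lower. For POLQ the libraries stood at 3.37, 3.36 and 3.95 CPM in senescent control, 5.6, 5.32 and 5.72 with DMSO and 4.07, 4.71 and 4.23 with TRi-1, with the TRi-1 group between the others and no overlap. Of the mitosis genes 17 of 18 were higher with DMSO. The labels do not give what else differed between the senescent control and DMSO cultures.

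**Figure D5:**
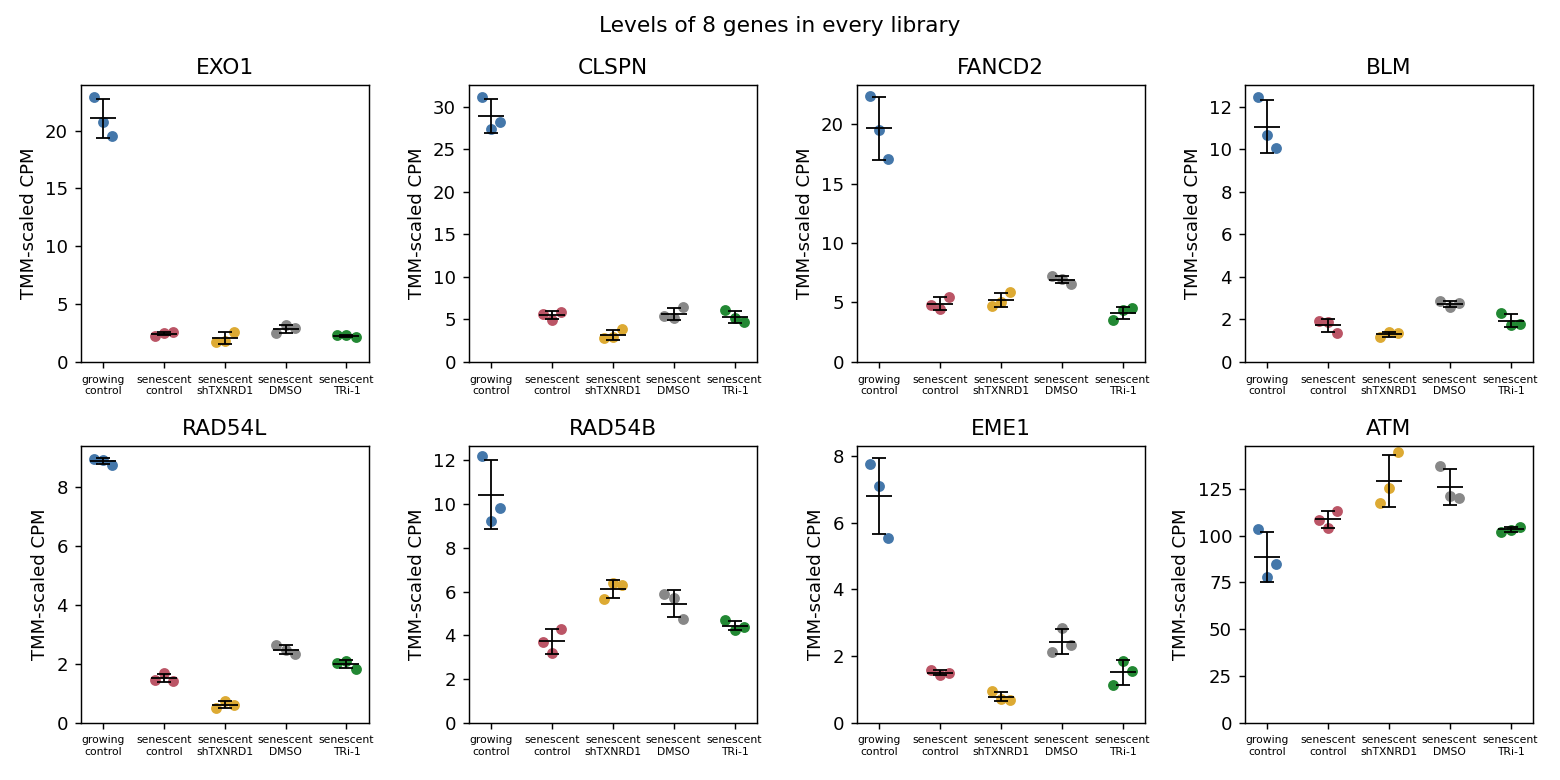
Points are TMM-scaled CPM in each library, horizontal lines are group means and error bars are SD (n = 3) for EXO1, CLSPN, FANCD2, BLM, RAD54L, RAD54B, EME1 and ATM, each on its own axis; RAD54B and ATM were chosen after their values were seen. RAD54L is lowest with the hairpin and RAD54B is not, and FANCD2 is lowest with TRi-1.

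The last comparison tested whether the hairpin and TRi-1 changed a gene by different amounts, as the hairpin change minus the TRi-1 change. Of the 39 genes 6 had a positive difference past the threshold and 3 a negative one, against 22.1% and 19.5% of all genes tested. Without shTXNRD1 replicate 3, 5 were negative, and with the 3 AT-rich libraries left out, with or without senescent control replicate 3, 6 were. The median difference was 0.09, against -0.03 over all genes tested. After the GC correction 7 were positive and 9 negative and the median was -0.14, and over all genes the difference correlated with GC content at a Spearman rho of -0.42. RAD54B had the largest positive difference (1.01 ± 0.20, adjusted p = 0.00119), from a hairpin change of 0.72 and a TRi-1 change of -0.29. FANCD2 followed (0.81 ± 0.19, adjusted p = 0.00368), with 0.08 under the hairpin and -0.73 under TRi-1. RAD54L had the largest negative difference (-0.96 ± 0.21, adjusted p = 0.00813), with -1.29 and -0.32. EME1 was called lower in both comparisons, and its difference was not called (-0.27 ± 0.31, adjusted p = 0.499).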

How the data were processed

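RNA of 15 IMR90 libraries in 5 labelled groups of 3 was measured by 75-bp paired-end sequencing of KAPA RNA HyperPrep libraries on an Illumina NextSeq, per the labels' protocols. The deposited table holds counts per Ensembl gene, whole numbers with no scaling. RSEM 1.2.3, DESeq2, hg19 and mm10 appear in the submitters' processing notes with no role given, so whether the counts are rounded RSEM estimates is not known. Nor do the sources used here name an aligner, an annotation or the strand setting. Symbols were matched by identifier.

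Counts were scaled by TMM, filtered with filterByExpr by group and fitted by the robust quasi-likelihood F test of edgeR 4.0.16 (R 4.3.3) as 1 model of 15 libraries with 10 residual degrees of freedom. Two-sided p-values were adjusted by Benjamini-Hochberg over 15994 genes in each comparison. The fit was checked on simulated data. The 39 genes, the role groups and the other lists were chosen with earlier results of these data known. Every library's value is given for the genes with the largest absolute changes, 2 per role group with senescence and 3 for each inhibition, and the other lists are represented by up to 2 genes with the smallest p. Genome positions come from RefSeq promoter windows (GRCh38.p14) and transcript lengths, GC content and overlaps from GENCODE v29 (GRCh38), another build than the notes name. Alternatives were RLE scaling, DESeq2 1.42.0, limma-voom (limma 3.58.1), no filter, a mean CPM of at least 5, a replicate term, the compared groups alone and each library left out. A GC correction (lowess on transcript GC, 96.5% of genes) was chosen after seeing the data. It was fitted in each library on the deviation from a gene's mean over all 15 libraries. It thus also removed changes between whole groups that follow GC content, which cannot be told apart from technical drift. Also chosen after seeing the data were fits leaving out the library highest in AT-rich transcripts of 3 groups (growing control 1, shTXNRD1 3, DMSO 1), with or without senescent control 3.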

Additional observations from a re-analysis of the deposited data

Results flagged for a closer look

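For 9 of the 39 genes the change with the hairpin and the change with TRi-1 differed in the test of that difference (edgeR, hairpin change minus TRi-1 change on the log2 scale), which is why they are given here. Of these 6 were positive and 3 negative, against 22.1% and 19.5% of all genes tested. The difference was positive for RAD54B (1.01 ± 0.20, adjusted p = 0.00119), FANCD2 (0.81 ± 0.19, adjusted p = 0.00368), MRE11 (0.72 ± 0.20, adjusted p = 0.00996), CHEK1 (0.66 ± 0.17, adjusted p = 0.00562), ATM (0.54 ± 0.14, adjusted p = 0.00721) and PALB2 (0.43 ± 0.13, adjusted p = 0.0185). It was negative for RAD54L (-0.96 ± 0.21, adjusted p = 0.00813), CLSPN (-0.69 ± 0.20, adjusted p = 0.014) and FANCC (-0.68 ± 0.15, adjusted p = 0.00254). The PALB2 call was lost after the GC correction (0.18, adjusted p = 0.132) and without DMSO replicate 2 (0.38, adjusted p = 0.0515). The hairpin and TRi-1 were set against different controls, senescent control and DMSO, which differed in 9 of the 39 genes, 7 higher with DMSO and 2 lower, against 8.36% and 7.87% of all genes tested; the difference between the controls is part of the value and cannot be told apart from it here.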

How the results depend on the processing

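The 33 genes lower in senescent control kept direction and call under every alternative that tested them; the filter at a mean CPM of 5 kept 30 of the 39 genes. The median change with senescence was -1.17 under that filter, -1.41 with the 3 AT-rich libraries and senescent control replicate 3 omitted and -1.40 to -1.26 with 1 library left out, and genes called higher were 0 to 1 with 1 library left out and 2 after the GC correction. With the hairpin, leaving out 1 library gave 4 to 8 genes higher and 9 to 12 lower, and the GC correction 16 lower with a median of -0.13. With TRi-1, genes lower were 1 in DESeq2, 5 after the GC correction, 5 at a mean CPM of at least 5, 8 with the compared groups alone and 1 to 2 with 1 library left out. Genes lower were 6 with those 4 libraries omitted. Genes higher were 2 with the GC correction and 1 with the 3 AT-rich libraries or the 4 omitted, and the median was -0.068 after the GC correction. For DMSO against senescent control, 12 were higher after the GC correction, and leaving out 1 library gave 3 to 5 higher and 0 to 2 lower. For the difference between the hairpin and TRi-1, genes lower were 9 with the GC correction, 6 with the 3 or the 4 libraries omitted and 3 to 5 with 1 library left out. Its median was -0.144 with the GC correction, -0.0157 with the 3 and -0.0095 with the 4 omitted, and 0.0095 to 0.12 with 1 left out. Reversed directions were counted only where a gene was called in the main fit or in the alternative. By this rule they occurred after the GC correction alone. They were RAD50 with senescence (0.17, adjusted p = 0.000233), NBN with the hairpin (-0.20, adjusted p = 0.000111) and NBN in the difference (-0.27, adjusted p = 0.000279). The cause was not tested.

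Replicate numbers gave no clear pairing of the samples. Same-numbered libraries had correlations of their deviations from -0.61 to 0.42 over all pairs of groups. In none of the groups compared were all 3 over 0.1, while in growing control and DMSO, not compared here, all 3 were (0.113 to 0.423). With 3 libraries a group that also differ along GC content, this check cannot exclude paired cultures. With the replicate block 6 genes were higher and 9 lower with the hairpin, since ATM (adjusted p = 0.055) and MND1 (0.0546) passed the threshold no longer, and no other call changed. Depth limits the rarest genes most: MND1 rested on 24 counts over the hairpin group and RAD54L on 39.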
